A study of Gallus gallus with 5 samples.

Results

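Heat shock proteins and chaperones were followed across 5 RNA libraries of regenerating chicken feather follicles. The genes were chosen by their symbols. Every entry whose symbol starts with HSP90, with HSP or HSPA to HSPE or HSPH and a digit, with DNAJA, DNAJB or DNAJC and a digit, or with CCT and a digit was taken, and TCP1 was added. This gave 64 of the 17108 entries in the table, and 60 of them averaged 1 FPKM or more (fragments per kilobase of transcript, scaled to library depth) and were tested among 11031 genes. They were grouped into 9 families. HSP90 held 3 tested genes, HSP70 7, HSP110 3, DNAJA 4, DNAJB 9, DNAJC 22, small heat shock proteins 4, the mitochondrial chaperonin 2 and the cytosolic CCT chaperonin 6.

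Chaperones bind proteins that are unfolded or still folding and keep them from aggregating. HSP70 proteins clasp short hydrophobic stretches in cycles of ATP hydrolysis, which the J-domain proteins (DNAJ families) start and HSP110 proteins, as nucleotide exchange factors, help to end. HSP90 acts later on kinases and receptors, the barrel-shaped chaperonins enclose whole proteins such as actin and tubulin, and small heat shock proteins hold unfolded proteins without ATP. Many of these genes are induced by heat through heat shock factors, and those of the endoplasmic reticulum by the unfolded protein response.

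Wing flight feathers were plucked so that their follicles regenerated, and a lentivirus (pLVX-Zsgreen for overexpression, pLL3.7 for knockdown) was used to alter a gene's expression there. Each library holds RNA of 5 pooled follicles. The libraries were 1 labelled Wnt5a overexpression, 1 of lnc7831 knockdown, 1 of lnc3500 knockdown and 2 of wild type. The labels name no empty-vector library, so vector delivery and treatment cannot be told apart, nor can the tag T4, which only the wild-type titles carry. The labels give neither strain nor age, and they do not say whether the wild-type libraries came from separate birds, so the spread between them may be technical.

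WNT5A, the targeted ligand, had 75.7 FPKM as deposited in the library labelled Wnt5a overexpression, 162 with lnc7831 knockdown and 43.8 with lnc3500 knockdown, against 29.7 and 64.3 in wild type. After centring on the median gene, its log2 difference between the library labelled for its overexpression and the wild-type mean was 0.19 (SE 0.59), less than the 1.04 between the wild types. No entry carries the name of either knockdown target. The source name is dermal papilla, the mesenchymal core of the follicle, yet the epidermal keratin KRT14 had 621 to 4401 FPKM as deposited and the dermal collagen COL1A2 1003 to 3996, so the libraries held RNA of both layers. In such bulk samples, fewer cells of a type and less RNA per cell cannot be told apart. As deposited, the median tested gene stood above wild type by 0.54 to 0.64 log2 units in the 3 treated libraries. All levels below are therefore median-centred FPKM, divided by a factor per library, and all log2 differences are relative to the median gene, on the log2 scale after adding 1. A treated library's difference from wild type is taken from the wild-type mean unless 1 wild-type library is named.

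The tested chaperone genes spanned 0.615 to 837 centred FPKM, and hsp70 led every library. The entry named hsp70 (ENSGALG00000011715), whose name RefSeq lists as a synonym of HSPA2, was the highest member in all 5 libraries. It had 699 centred FPKM in the library labelled Wnt5a overexpression, 837 with lnc7831 knockdown, 618 with lnc3500 knockdown, and 794 and 477 in wild type. The wild types enclosed 2 of these libraries, and lnc7831 knockdown lay above both. Behind it by mean level came the cytosolic HSP90AA1, the mitochondrial co-chaperonin HSPE1, the endoplasmic reticulum chaperone HSPA5 and the small heat shock protein HSPB1. Their order differed from library to library, and HSPB1 ranked between 2 and 7, behind HSP90B1 and HSPA8 in lnc7831 knockdown and wild-type library 1. Together the 5 genes held 43.3% of the summed FPKM of all members in the library labelled Wnt5a overexpression, 45.4% with lnc7831 knockdown, 44.3% with lnc3500 knockdown, and 41.0% and 41.7% in wild type.

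The 4 entries below the filter were DNAJB8, DNAJC5B, HSPB3 and a second entry of HSPE1 (ENSGALG00000025715). That entry was listed at 0 in all 5 libraries, while the other HSPE1 entry (ENSGALG00000009070) had 286 to 450 centred FPKM. Reads of close relatives such as hsp70 and HSPA8, or HSP90AA1 and HSP90AB1, can be shared between entries, so their split is uncertain.

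**Figure D1:**
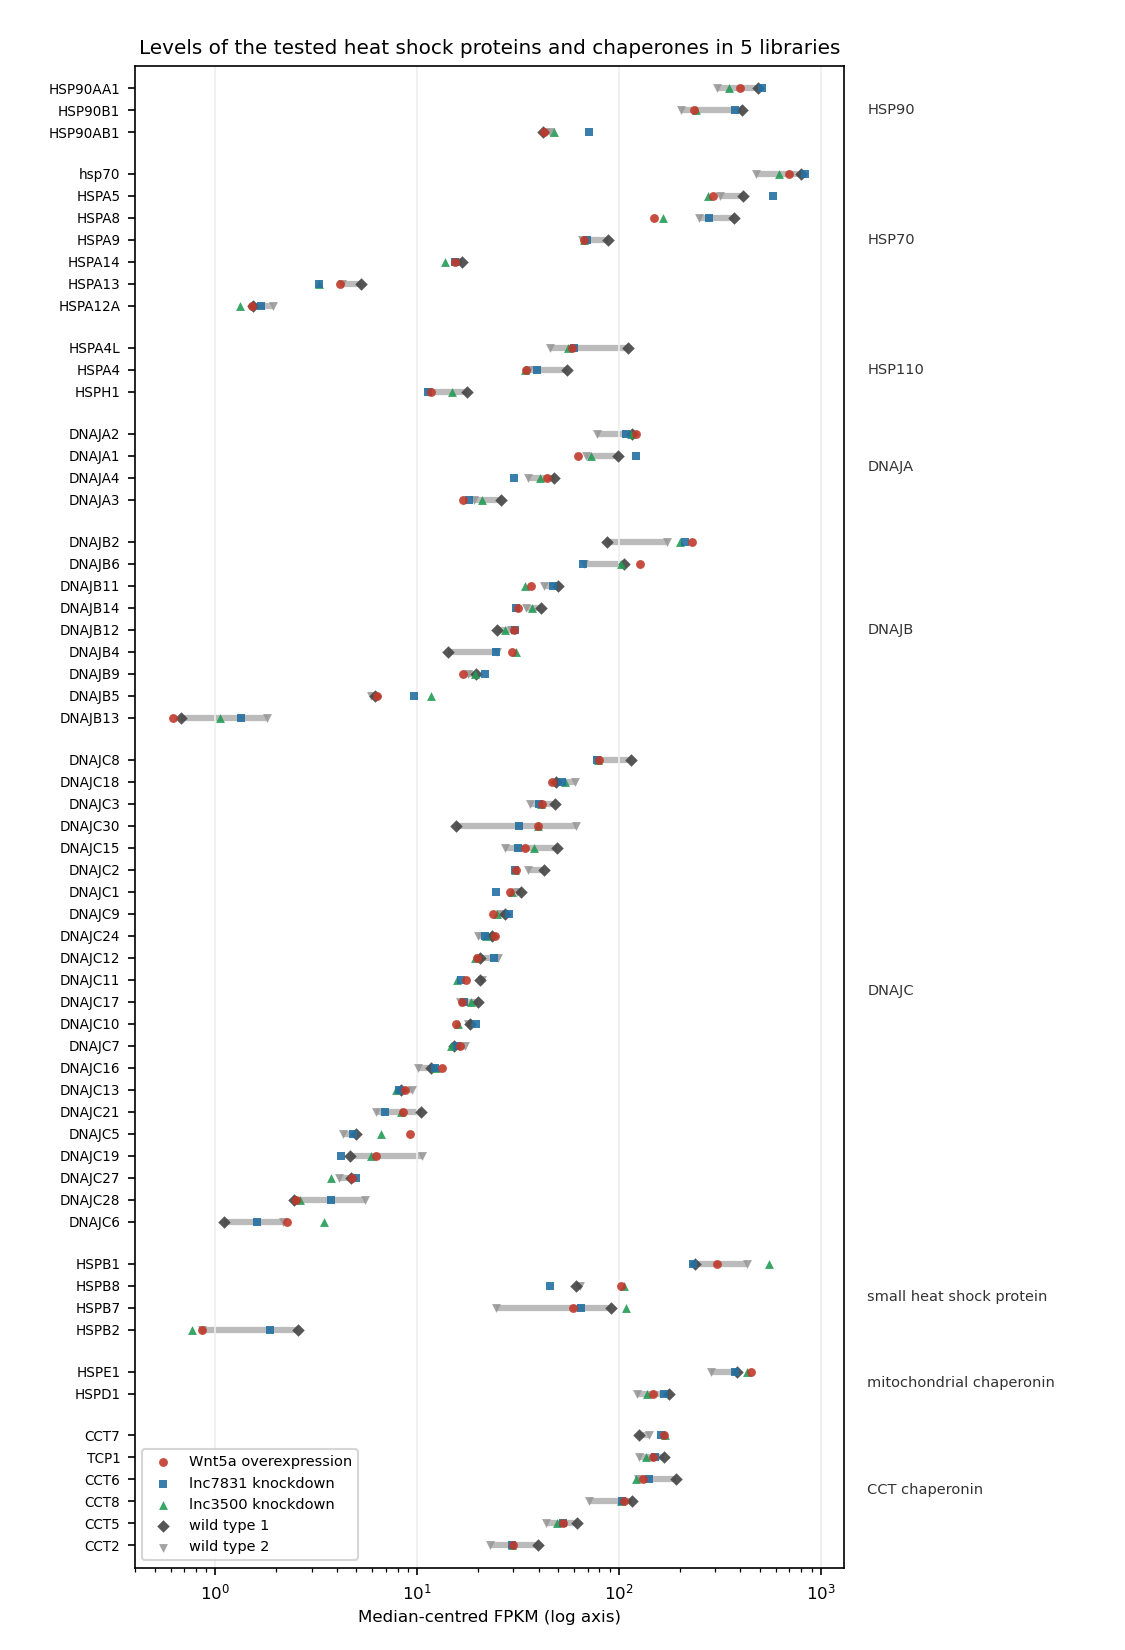
Levels of the 60 tested members in each library, as median-centred FPKM on a log axis, grouped by family and ordered by mean level, with grey bars joining the 2 wild types. HSPA8 lies left of its wild-type bar at 149 and 165 in 2 treated libraries, and hsp70 is the highest row in all 5 libraries.

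The comparisons asked how each treated library differed from wild type. No chaperone gene passed either rule in any of them. Limma called 0 of the 60 members in each comparison at an adjusted p below 0.05, and 0 of 60 had an unadjusted p below 0.05. Of all tested genes limma called 0.00907% in the library labelled Wnt5a overexpression, 0.0363% with lnc7831 knockdown and 0% with lnc3500 knockdown. An unadjusted p below 0.05 was found for 4.01%, 3.04% and 3.08% of them in that order. The 2-fold rule, which has no test, asks for a difference of at least 1 log2 unit from each wild-type library in the same direction. It took 0 members in either direction, beside 2.18% of all genes above and 1.74% below in the library labelled Wnt5a overexpression, 1.64% and 1.32% in lnc7831 knockdown, and 1.43% and 1.64% in lnc3500 knockdown. Each treated group is a single library, and the members' limma standard errors lay between 0.30 and 0.92 log2 units. Limma rarely makes a call in this design, so 0 called members does not show that they were unchanged. The plasma cell marker MZB1, at -4.03 (SE 0.31) in the library labelled Wnt5a overexpression, had a limma adjusted p of 0.258.

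The 2-fold counts depend on which wild type is used. Against wild-type library 1 alone, DNAJB2, DNAJB4 and DNAJC30 passed above it and HSPA8 below it in the library labelled Wnt5a overexpression, beside 8.88% and 4.92% of all genes. With lnc7831 knockdown DNAJB2 passed above it and 0 members below, beside 8.56% and 3.93%. In lnc3500 knockdown DNAJB2, DNAJB4, DNAJC30, DNAJC6 and HSPB1 passed above it and HSPA8 and HSPB2 below, beside 9.41% and 4.38%. Against wild-type library 2 alone, HSPB7 passed above it in each treated library, beside 4.25%, 4.22% and 3.14% of all genes in the same order, and DNAJC19 below it in lnc7831 knockdown, beside 4.3%, 3.51% and 4.27%. No member was taken against both.

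Members lay close to the wild-type mean. In the library labelled Wnt5a overexpression 54 of 60 were within 0.5 log2 units of the wild-type mean, in lnc7831 knockdown 54 and in lnc3500 knockdown 51, which is 90%, 90% and 85% of members beside 72.9%, 75.2% and 74% of all genes. The members were not matched to all genes by level, and 53 of 60 averaged at least 5 FPKM, beside 8517 of 11031 genes. Their median differences were -0.07, 0.01 and -0.08 in the same order, beside 0.00 for all genes in each. In the library labelled Wnt5a overexpression 14 members were above both wild types and 19 below both, beside 31.8% and 32.8% of all genes. In lnc7831 knockdown 14 were above and 13 below, beside 31% and 32.3%. In lnc3500 knockdown 12 were above and 18 below, beside 31.9% and 32.2%. The remaining 27, 33 and 30 members lay inside the wild-type range, which is 45%, 55% and 50% of members beside 35.4%, 36.7% and 35.9% of all genes. That range was itself wider for members, with a median absolute difference between the wild types of 0.43 beside 0.36 for all genes. All 3 treated libraries were above both wild types for 4 members (DNAJB2, DNAJB5, DNAJC16 and CCT7), beside 15.1% of all genes, and below both for 5 (HSPA13, HSPA14, DNAJC1, DNAJC2 and DNAJC11), beside 16.2%.

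**Figure D2:**
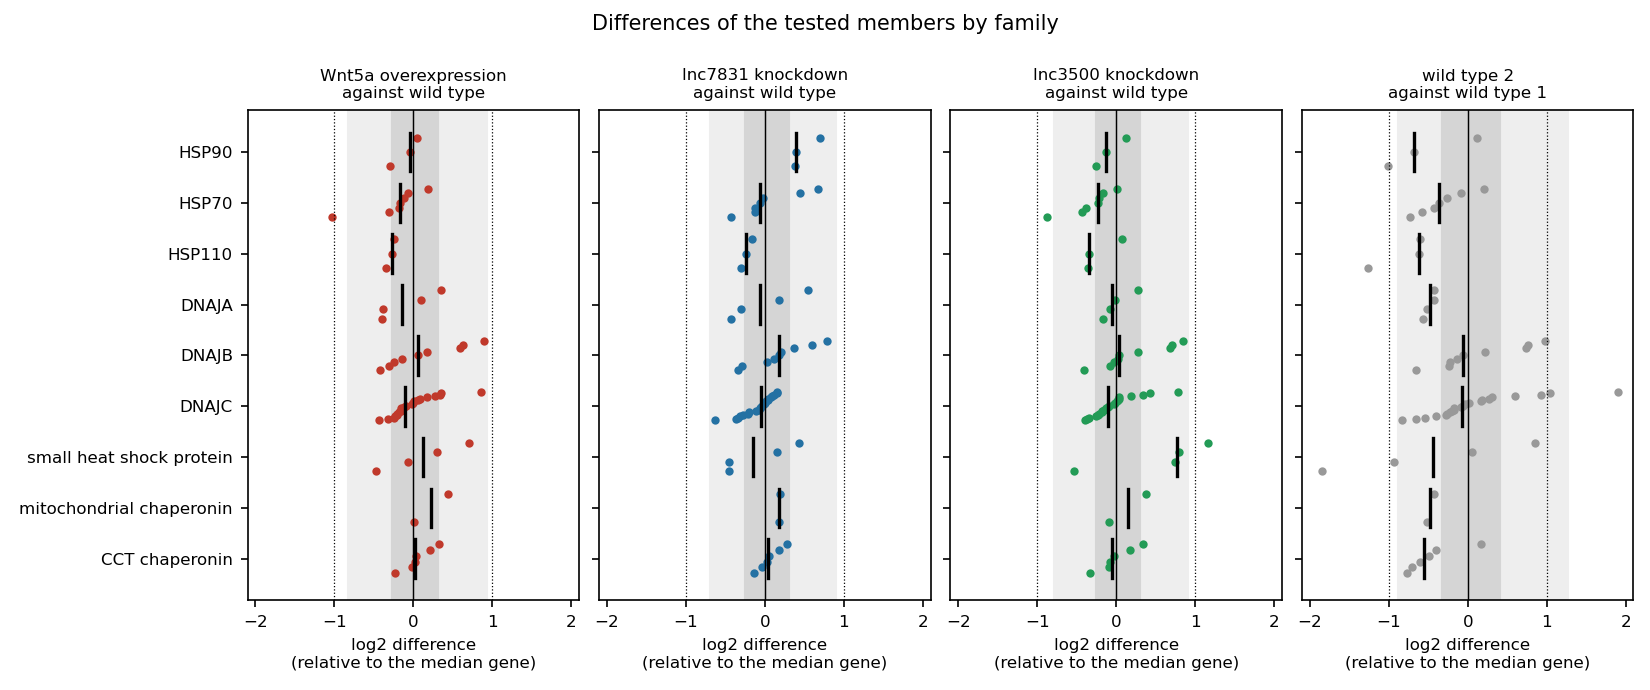
Relative log2 differences of the tested members by family in each treated library against wild type and between the wild types, each dot 1 gene and each black bar a family median. Dark and light grey bands hold the middle 50% and 90% of all tested genes. Dotted lines mark a difference of 1 from the wild-type mean or, in the last panel, between the wild types. The member median is -0.25 between the wild types and -0.08 to 0.01 in the treated libraries.

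Among the cytosolic HSP90 genes, the constitutive HSP90AB1 was higher in lnc7831 knockdown and HSP90AA1, the isoform known to be induced by stress, was near wild type in the other treated libraries. HSP90AB1 had 42.4 centred FPKM in the library labelled Wnt5a overexpression, 71.4 with lnc7831 knockdown, 47.7 with lnc3500 knockdown, and 42.0 and 45.6 in wild type. The wild types were close together here, and lnc7831 knockdown stood above them with a log2 difference of 0.69 (SE 0.35, limma adjusted p = 1), while lnc3500 knockdown was just above both. HSP90AA1 had 398 centred FPKM in the library labelled Wnt5a overexpression, 509 with lnc7831 knockdown and 351 with lnc3500 knockdown, against 489 and 305 in wild type. Its lnc7831 knockdown value was just above the higher wild type, at 0.40 from the wild-type mean (SE 0.50). The other treated values lay between the wild types. Per length, HSP90AA1 exceeded HSP90AB1 by 7.13 to 9.38 times in the treated libraries and by 6.68 and 11.6 times in the wild types.

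HSPA8, the constitutive cytosolic HSP70 that also strips clathrin from vesicles, was the HSP70 gene farthest from wild type in 2 of the 3 treated libraries. It had 149 centred FPKM in the library labelled Wnt5a overexpression, 280 with lnc7831 knockdown, 165 with lnc3500 knockdown, and 372 and 250 in wild type. The lnc7831 knockdown value lay between the wild types. The library labelled Wnt5a overexpression and lnc3500 knockdown were below both, at -1.03 and -0.88 from the wild-type mean (SE 0.47 each). Neither passed limma over all genes (adjusted p = 1 for both), and the first was 0.74 below wild-type library 2, short of the 2-fold rule. The ratio of hsp70 to HSPA8, chosen after its values were seen, was 4.70, 2.98 and 3.74 in the library labelled Wnt5a overexpression, with lnc7831 knockdown and with lnc3500 knockdown, against 2.13 and 1.91 in wild type.

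HSPA5, the HSP70 of the endoplasmic reticulum also known as BiP, was highest in lnc7831 knockdown. It had 292 centred FPKM in the library labelled Wnt5a overexpression, 577 with lnc7831 knockdown, 277 with lnc3500 knockdown, and 410 and 318 in wild type. The lnc7831 knockdown value was above both wild types, at 0.67 from the wild-type mean (SE 0.43). The others were below both, at -0.30 and -0.38 from that mean. HSPA9, the mitochondrial HSP70, was inside the wild-type range in all 3 treated libraries, with 67.2 in the library labelled Wnt5a overexpression, 69.6 with lnc7831 knockdown and 67.3 with lnc3500 knockdown, against 88.4 and 65.3 in wild type. The ribosome-associated HSPA14 and the microsomal HSPA13 were below both wild types in all 3. HSPA14 had 15.4 centred FPKM in the library labelled Wnt5a overexpression, 15.4 with lnc7831 knockdown and 13.8 with lnc3500 knockdown, against 16.7 and 15.6 in wild type, differences of -0.06 to -0.21. HSPA13 had 4.13 centred FPKM in the library labelled Wnt5a overexpression, 3.27 with lnc7831 knockdown and 3.25 with lnc3500 knockdown, against 5.28 and 4.26 in wild type. HSPA12A was the lowest of the family, at 1.33 to 1.94 centred FPKM.

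The 3 HSP110 genes were all lower in wild-type library 2 than in library 1. HSPA4L had 58.7, 60.0 and 55.8 centred FPKM in the library labelled Wnt5a overexpression, with lnc7831 knockdown and with lnc3500 knockdown, against 111 and 45.6 in wild type. HSPA4 had 34.7 centred FPKM in the library labelled Wnt5a overexpression, 39.4 with lnc7831 knockdown and 34.3 with lnc3500 knockdown, against 55.0 and 35.7 in wild type, and HSPH1 11.8 centred FPKM in the library labelled Wnt5a overexpression, 11.3 with lnc7831 knockdown and 14.9 with lnc3500 knockdown, against 17.7 and 11.3 in wild type. For HSPA4L and HSPH1 every treated library lay between the wild types, and HSPA4 was just under both in the library labelled Wnt5a overexpression and in lnc3500 knockdown.

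J-domain proteins deliver clients to HSP70, and the DNAJA genes encode the type closest to bacterial DnaJ. DNAJA1, a cytosolic partner of HSPA8, had 62.4 centred FPKM in the library labelled Wnt5a overexpression, 121 with lnc7831 knockdown, 73.1 with lnc3500 knockdown, and 98.4 and 68.7 in wild type. It was above both wild types in lnc7831 knockdown (0.55, SE 0.43) and below both in the library labelled Wnt5a overexpression (-0.39). DNAJA2, its cytosolic relative, had 122 centred FPKM in the library labelled Wnt5a overexpression, 108 with lnc7831 knockdown and 115 with lnc3500 knockdown, against 116 and 77.8 in wild type, the first just above both. DNAJA4 had 44.1 centred FPKM in the library labelled Wnt5a overexpression, 30.3 with lnc7831 knockdown and 40.5 with lnc3500 knockdown, against 47.9 and 35.2 in wild type, with lnc7831 knockdown below both. The mitochondrial DNAJA3 had 17 centred FPKM in the library labelled Wnt5a overexpression, 18 with lnc7831 knockdown and 21.1 with lnc3500 knockdown, against 26.2 and 19.1 in wild type, with lnc3500 knockdown alone inside the wild-type range.

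DNAJB2, which links HSP70 clients to ubiquitin-dependent breakdown, had 229 centred FPKM in the library labelled Wnt5a overexpression, 212 with lnc7831 knockdown, 202 with lnc3500 knockdown, and 87.1 and 173 in wild type. All treated libraries were above both wild types, with differences of 0.89, 0.78 and 0.71 (SE 0.59), but the wild types themselves differed by 0.98. DNAJB5, a cytosolic J protein named after its values were seen, had 6.32 centred FPKM in the library labelled Wnt5a overexpression, 9.67 with lnc7831 knockdown and 11.7 with lnc3500 knockdown, against 6.16 and 5.90 in wild type. Here the wild types nearly coincided and the knockdowns stood apart, by 0.60 in lnc7831 and 0.85 in lnc3500 (SE 0.30). Its limma adjusted p was 1 in both.

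DNAJB6, a suppressor of protein aggregation, had 128 centred FPKM in the library labelled Wnt5a overexpression, 66.7 with lnc7831 knockdown, 103 with lnc3500 knockdown, and 106 and 67.2 in wild type. The first was above both wild types and lnc7831 knockdown just below both. DNAJB11, a cofactor of HSPA5, had 36.9 centred FPKM in the library labelled Wnt5a overexpression, 47.0 with lnc7831 knockdown and 34.3 with lnc3500 knockdown, against 49.8 and 42.3 in wild type, below both wild types except in lnc7831 knockdown. Of the 9 DNAJB genes tested, 5 were above both wild types in the library labelled Wnt5a overexpression and 4 below. In lnc7831 knockdown 4 were above and 2 below, and in lnc3500 knockdown 3 were above and 1 below. Of all genes 31% to 31.9% were above and 32.2% to 32.8% below in these comparisons.

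The 22 DNAJC genes join J domains to many other functions and ranged from 1.1 centred FPKM for DNAJC6 to 114 for DNAJC8. Their family medians were -0.10 in the library labelled Wnt5a overexpression, -0.04 with lnc7831 knockdown and -0.10 with lnc3500 knockdown. DNAJC8, a splicing-associated J protein and the highest of them by mean, had 79.4 centred FPKM in the library labelled Wnt5a overexpression, 77.9 with lnc7831 knockdown and 79.1 with lnc3500 knockdown, against 114 and 77.9 in wild type. DNAJC18 had 46.8 centred FPKM in the library labelled Wnt5a overexpression, 52.4 with lnc7831 knockdown and 53.8 with lnc3500 knockdown, against 48.6 and 60.3 in wild type, and DNAJC3, a cofactor of HSPA5, had 41.8 centred FPKM in the library labelled Wnt5a overexpression, 40.1 with lnc7831 knockdown and 41.1 with lnc3500 knockdown, against 48.4 and 36.4 in wild type. DNAJC8 and DNAJC3 lay inside the wild-type range throughout, and DNAJC18 was below it in the library labelled Wnt5a overexpression. DNAJC2, DNAJC11 and DNAJC1, named after their values were seen, were below both wild types in every treated library, DNAJC2 with 30.9 in the library labelled Wnt5a overexpression, 30.5 with lnc7831 knockdown and 30.5 with lnc3500 knockdown, against 42.7 and 35.3 in wild type.

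DNAJC5 and DNAJC6, both named after their values were seen, were the DNAJC genes farthest above the wild-type mean in 1 library each, DNAJC5 in the library labelled Wnt5a overexpression and DNAJC6 in lnc3500 knockdown. DNAJC5, the cysteine string protein of secretory vesicles, had 9.19 centred FPKM in the library labelled Wnt5a overexpression, 4.82 with lnc7831 knockdown, 6.59 with lnc3500 knockdown, and 4.99 and 4.31 in wild type. The first and lnc3500 knockdown stood above both wild types, at 0.85 (SE 0.32, limma adjusted p = 1) and 0.43 from the wild-type mean. The lnc7831 knockdown value lay between the wild types. DNAJC6, auxilin, which brings HSPA8 to clathrin coats, had 2.26 centred FPKM in the library labelled Wnt5a overexpression, 1.62 with lnc7831 knockdown and 3.44 with lnc3500 knockdown, against 1.1 and 2.17 in wild type. DNAJC30, a mitochondrial J protein in humans, had 39.8 centred FPKM in the library labelled Wnt5a overexpression, 31.9 with lnc7831 knockdown and 39.6 with lnc3500 knockdown, against 15.6 and 61.0 in wild type. Its wild-type gap was the largest of the tested members and enclosed every treated library.

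HSPB8, which works with BAG3 in the selective autophagy of damaged filaments, had 103 centred FPKM in the library labelled Wnt5a overexpression, 45.4 with lnc7831 knockdown, 105 with lnc3500 knockdown, and 61.3 and 64.0 in wild type. The wild types were alike. From their mean, the library labelled Wnt5a overexpression and lnc3500 knockdown differed by 0.70 and 0.74 (SE 0.36), above both. The lnc7831 knockdown value differed by -0.46, below both. HSPB1, the major small heat shock protein of epithelia and muscle, had 305 centred FPKM in the library labelled Wnt5a overexpression, 234 with lnc7831 knockdown and 557 with lnc3500 knockdown, against 238 and 430 in wild type. Only lnc3500 knockdown among these was above both, at 0.80 from the wild-type mean (SE 0.55) and 0.37 above wild-type library 2. The lnc7831 knockdown value was just below both.

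HSPB7, best known from heart muscle, had 59.1 centred FPKM in the library labelled Wnt5a overexpression, 64.6 with lnc7831 knockdown, 108 with lnc3500 knockdown, and 91.3 and 24.6 in wild type. Its difference of 1.16 (SE 0.91) in lnc3500 knockdown was the largest of any member against the wild-type mean, yet wild-type library 2 differed from library 1 by -1.85. The smooth muscle markers measured, 3 of 5 listed (MYH11, DES and TAGLN), summed to 2009 centred FPKM in the library labelled Wnt5a overexpression, 1751 with lnc7831 knockdown, 2931 with lnc3500 knockdown, and 1504 and 2186 in wild type. Most of each sum was TAGLN, and these markers differed in direction between the wild types. In wild-type libraries 1 and 2, TAGLN had 901 and 1774, DES 407 and 221, and MYH11 196 and 191. Their part in the HSPB7 level was not tested. HSPB2, the neighbour of CRYAB in the RefSeq annotation of GRCg7b, was low everywhere, at 0.769 to 2.56. CRYAB itself, the alpha-crystallin chaperone, had 3.12 centred FPKM in the library labelled Wnt5a overexpression, 3.32 with lnc7831 knockdown and 4.89 with lnc3500 knockdown, against 3.03 and 11.1 in wild type.

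**Figure D3:**
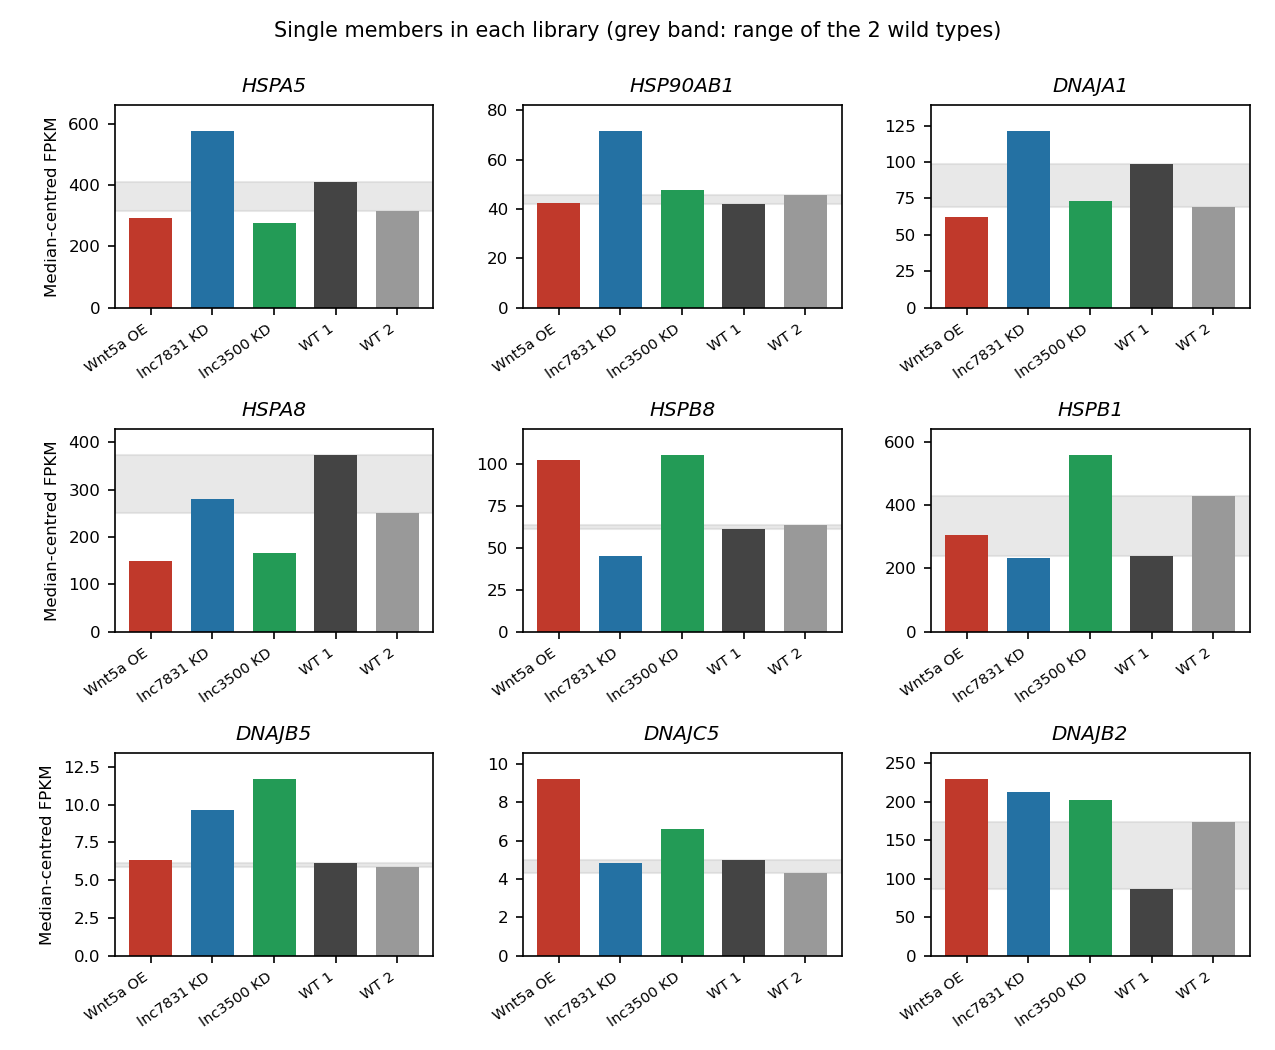
Median-centred FPKM of 9 members in each library, 3 treated libraries left and 2 wild types right, with a grey band from the lower to the higher wild type. HSPA5, HSP90AB1 and DNAJA1 are highest in lnc7831 knockdown, HSPA8 is lowest in the library labelled Wnt5a overexpression, and HSPB8 is lowest in lnc7831 knockdown.

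The mitochondrial pair HSPD1 and HSPE1, which form the barrel and its lid and are neighbouring genes in the RefSeq annotation, were both abundant. HSPD1 had 148, 168 and 138 centred FPKM in the library labelled Wnt5a overexpression, with lnc7831 knockdown and with lnc3500 knockdown, against 176 and 123 in wild type. HSPE1 had 450 centred FPKM in the library labelled Wnt5a overexpression, 374 with lnc7831 knockdown and 431 with lnc3500 knockdown, against 384 and 286 in wild type. The library labelled Wnt5a overexpression and lnc3500 knockdown were above both, at 0.44 and 0.38 from the wild-type mean (SE 0.44). HSPD1 stayed inside the wild-type range throughout.

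The cytosolic CCT ring, which folds actin and tubulin, was represented by 6 subunits. CCT2, CCT5, CCT8 and TCP1 lay inside the wild-type range in all 3 treated libraries. TCP1 had 148 centred FPKM in the library labelled Wnt5a overexpression, 151 with lnc7831 knockdown and 136 with lnc3500 knockdown, against 167 and 126 in wild type. CCT6 had 132 centred FPKM in the library labelled Wnt5a overexpression, 140 with lnc7831 knockdown and 122 with lnc3500 knockdown, against 191 and 125 in wild type, just below both in lnc3500 knockdown. CCT7 was above both wild types in each, with 168 in the library labelled Wnt5a overexpression, 162 with lnc7831 knockdown and 169 with lnc3500 knockdown, against 126 and 141 in wild type, and with differences of 0.28 to 0.34 (SE 0.39). Across the family the medians were 0.03, 0.04 and -0.05, while its median between the wild types was -0.55.

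Chaperones of the endoplasmic reticulum were then set beside other genes of folding in that compartment. A group of 7 members that act in its lumen was put together after the values were seen (HSPA5, HSP90B1, HSPA13, DNAJB9, DNAJB11, DNAJC3 and DNAJC10). The group is a selection, so its counts hold for these 7 only. DNAJC1, which was not put in it, differed by -0.37 in lnc7831 knockdown. In that library 5 of the 7 were higher than the wild-type mean. There 3 were above both wild types and HSPA13 was below both, beside 31% and 32.3% of all genes. In the library labelled Wnt5a overexpression 0 of 7 were higher and 5 below both wild types. In lnc3500 knockdown 1 of 7 was higher and 4 below both. Of all genes 32.8% and 32.2% were below both in these 2 libraries. Of 7 mitochondrial members put together in the same way, 2 were higher than the wild-type mean in each treated library. In the library labelled Wnt5a overexpression 1 was above both wild types and 2 below both. These counts were 0 and 3 in lnc7831 knockdown, and 1 and 1 in lnc3500 knockdown. Of all genes 31% to 31.9% were above both and 32.2% to 32.8% below both. As background for the counts of higher members, the medians of all genes lay between -0.002 and 0.002. A chosen group of cytosolic members had a higher median in lnc7831 knockdown than those of the lumen. Of 8 put together in the same way (hsp70, HSPA8, HSPA4, HSPH1, HSP90AA1, HSP90AB1, DNAJA1 and DNAJB4), 5 were higher there, 4 above both wild types and 0 below both, with a median of 0.38 beside 0.11 for the lumen, and 31% and 32.3% of all genes were above and below both. That group leaves out other cytosolic members, such as the 6 CCT genes, whose family median there was 0.04. The order of the medians therefore holds for these 8 only. HSP90B1, the HSP90 of the endoplasmic reticulum, had 235, 374 and 240 centred FPKM in the library labelled Wnt5a overexpression, with lnc7831 knockdown and with lnc3500 knockdown, against 409 and 202 in wild type. Its treated values all lay between the wild types, whose levels differed by -1.01 (library 2 minus library 1). DNAJB9 had 16.8 centred FPKM in the library labelled Wnt5a overexpression, 21.8 with lnc7831 knockdown and 19.3 with lnc3500 knockdown, against 19.7 and 17.8 in wild type, and DNAJC10 15.6 centred FPKM in the library labelled Wnt5a overexpression, 19.7 with lnc7831 knockdown and 15.9 with lnc3500 knockdown, against 18.3 and 17.9 in wild type.

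Of 24 listed genes of endoplasmic reticulum folding and the unfolded protein response, 22 were tested and 0 passed limma or the 2-fold rule in any comparison. In lnc7831 knockdown 16 were higher than the wild-type mean, 10 above both wild types and 3 below both, with a median of 0.16, beside 31% and 32.3% of all genes. Taken from each wild type alone, that median was -0.01 (library 1) or 0.34 (library 2). The disulfide isomerase PDIA6 had 255 centred FPKM in that library against 200 and 132 in wild type, and the collagen chaperone SERPINH1 545 against 461 and 338. SIL1, the exchange factor of HSPA5, had 13.8 in the library labelled Wnt5a overexpression, 15.7 with lnc7831 knockdown and 12.8 with lnc3500 knockdown, against 7.66 and 11.7 in wild type, above both in each. The oxidase ERO1L differed by -0.67 (SE 0.66) in lnc7831 knockdown, with 20.3 there against 51.2 and 20.8 in wild type. These 4 were named after their values were seen. In the library labelled Wnt5a overexpression the list median was -0.13, with 5 above and 5 below, and in lnc3500 knockdown -0.04, with 5 above and 3 below. Calreticulin (CALR) was listed at 0 in all 5 libraries, as were HSF1 and STIP1 of the lists below, and an exact 0 can be a failed estimate.

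**Figure D4:**
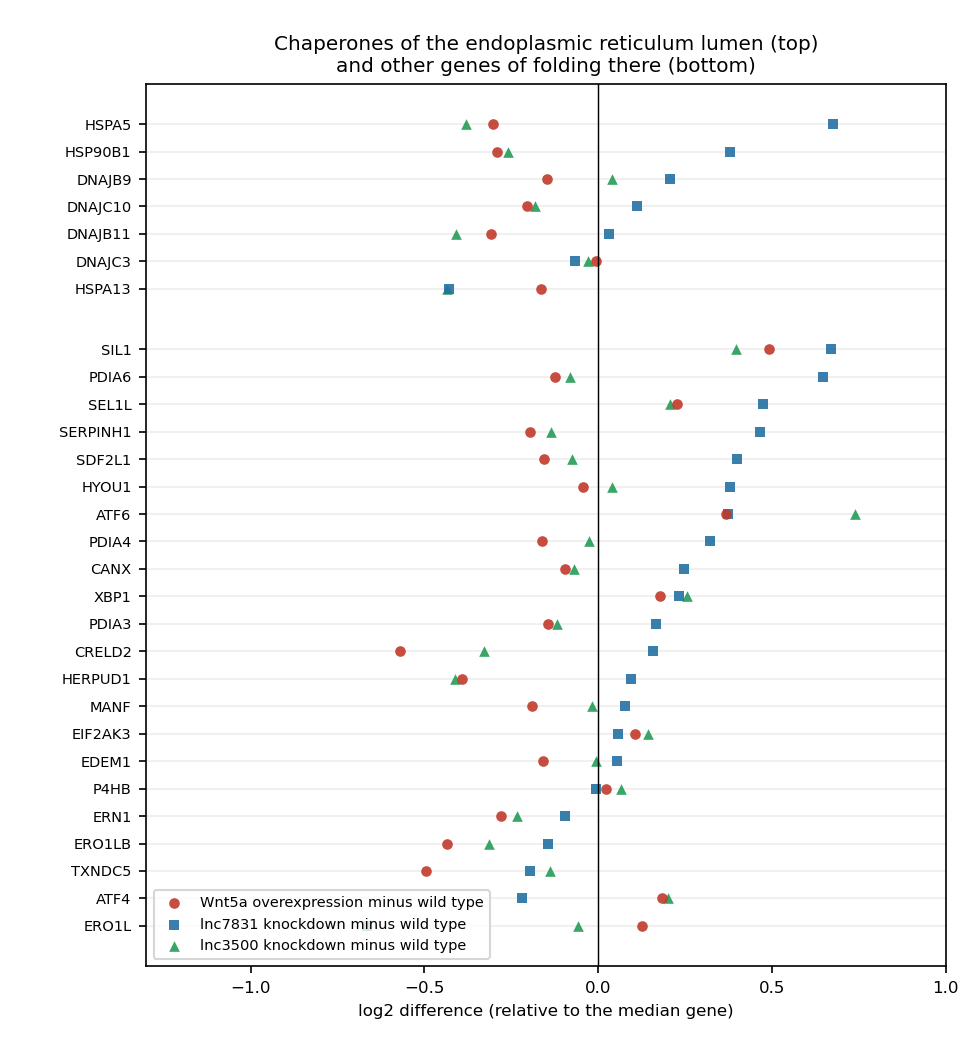
Relative log2 differences from wild type of 7 chosen chaperones of the endoplasmic reticulum lumen and the 22 tested genes of the endoplasmic reticulum list. Rows are ordered by lnc7831 knockdown, with 1 symbol per treated library. HSPA5 at 0.67, SIL1 at 0.67 and PDIA6 at 0.65 are the highest in lnc7831 knockdown, and all 7 lumen chaperones lie left of 0 in the library labelled Wnt5a overexpression.

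Markers of other cells differed between the libraries beside these values. The dermal and dermal papilla markers measured, 12 of 16 listed, had medians of 0.03, 0.34 and 0.06 in the library labelled Wnt5a overexpression, with lnc7831 knockdown and with lnc3500 knockdown, and summed to 4410, 6482 and 5284 centred FPKM against 3928 and 3992 in wild type. COL3A1 (1.41) and ALPL (1.93) of this list passed the 2-fold rule above wild type in lnc7831 knockdown. The 12 proliferation genes had medians of -0.36, 0.26 and -0.03, and UBE2C among them passed the 2-fold rule above wild type in lnc7831 knockdown (1.28). The plasma cell markers measured, 2 of 5 listed (MZB1 and IGJ), which mark antibody-secreting cells rich in endoplasmic reticulum, had summed levels of 8.83 centred FPKM in the library labelled Wnt5a overexpression, 18.2 with lnc7831 knockdown and 22.5 with lnc3500 knockdown, against 157 and 129 in wild type. The 14 epidermis markers, 12 of them tested, had summed levels of 7123 centred FPKM in the library labelled Wnt5a overexpression, 5561 with lnc7831 knockdown and 6044 with lnc3500 knockdown, against 2271 and 3873 in wild type, with KRT5 and KRT75 listed at 0 in each library. KRT14 alone had 3682, 3491 and 3203 in the same order, against 827 and 2222. Of the 12, 8, 2 and 4 passed the 2-fold rule above wild type, beside 2.18%, 1.64% and 1.43% of all genes. In lnc7831 knockdown 8 were above both wild types, and PKP1 and DSP were below both. The leukocyte markers measured, 10 of 11 listed, had summed levels of 111 centred FPKM in the library labelled Wnt5a overexpression, 141 with lnc7831 knockdown and 82.9 with lnc3500 knockdown, against 169 and 182 in wild type. In the same order, 4, 1 and 6 of them passed the 2-fold rule below wild type, beside 1.74%, 1.32% and 1.64% of all genes. Higher than the wild-type mean were 2, 3 and 1 of them. The hemoglobin HBG2, the 1 tested of 6 red blood cell markers, had 18.7 centred FPKM in the library labelled Wnt5a overexpression, 45.1 with lnc7831 knockdown and 22.3 with lnc3500 knockdown, against 16.8 and 13.5 in wild type, past the 2-fold rule in lnc7831 knockdown. The 6 pigment cell markers, 4 of them tested, had summed levels of 23.1 in the first of these libraries, 40.4 with lnc7831 knockdown and 22.9 with lnc3500 knockdown, against 26.3 and 28.5 in wild type. In lnc7831 knockdown 3 of the 4 were above both wild types and TYRP1 (2.29) passed the 2-fold rule. The 5 endothelium markers summed to 105 centred FPKM in the library labelled Wnt5a overexpression, 118 with lnc7831 knockdown and 114 with lnc3500 knockdown. Their sums in wild type were 108 and 135. Of these 5, 0 passed the 2-fold rule, beside 1.32% to 2.18% of all genes in either direction. The part of these cells in the chaperone levels was not tested.

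Among co-chaperones, prefoldin and chaperonin helpers, mitochondrial folding genes and heat shock factors, 0 tested genes passed limma over all genes or the 2-fold rule. Of all genes limma called at most 0.0363% in a comparison with wild type. The 2-fold rule took 1.43% to 2.18% of them above and 1.32% to 1.74% below, so the 0 lies near those shares. Of the 18 tested HSP70 and HSP90 co-chaperones, 8 were above both wild types and 7 below in the library labelled Wnt5a overexpression, 3 and 11 in lnc7831 knockdown, and 6 and 10 in lnc3500 knockdown, beside 31% to 31.9% of all genes above and 32.2% to 32.8% below. BAG2, an inhibitor of the chaperone-linked ubiquitin ligase STUB1, had 110 centred FPKM in the library labelled Wnt5a overexpression, 30.5 with lnc7831 knockdown, 113 with lnc3500 knockdown, and 34.8 and 64.6 in wild type. The library labelled Wnt5a overexpression and lnc3500 knockdown stood above both wild types, at 1.2 and 1.23 from the wild-type mean (SE 0.53). Both were short of the 2-fold rule, and lnc7831 knockdown was below both wild types. STUB1 had 89.8 centred FPKM in the library labelled Wnt5a overexpression, 42.7 with lnc7831 knockdown and 67.4 with lnc3500 knockdown, against 37.4 and 54.1 in wild type. UNC45A, a myosin chaperone and HSP90 partner, had 40.3 centred FPKM in the library labelled Wnt5a overexpression, 34.0 with lnc7831 knockdown and 39.2 with lnc3500 knockdown, against 15.3 and 24.0 in wild type, above both wild types in every treated library. These 3 genes were named after their values were seen.

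The tested heat shock factor, HSF2, had 32.5, 30.6 and 29.7 centred FPKM in the library labelled Wnt5a overexpression, with lnc7831 knockdown and with lnc3500 knockdown, against 32.5 and 31.1 in wild type. HSBP1, a small binding protein of heat shock factors, had 143 centred FPKM in the library labelled Wnt5a overexpression, 185 with lnc7831 knockdown and 96.5 with lnc3500 knockdown, against 164 and 58.8 in wild type. The 9 tested prefoldin and chaperonin helpers had medians of -0.27, -0.24 and -0.28, and the 7 tested genes of mitochondrial folding 0.18, -0.08 and 0.27. Of 7 tested immediate early and stress genes, 3 were higher than the wild-type mean in the library labelled Wnt5a overexpression, 7 with lnc7831 knockdown and 5 with lnc3500 knockdown. Their medians were -0.10, 0.49 and 0.38, beside -0.002 to 0.002 for all genes. In lnc7831 knockdown 3 were above both wild types and 0 below both, beside 31% and 32.3% of all genes. HSPA5, DNAJA1 and HSP90AB1 were highest in that library. Other chaperone members went the other way there. Of the 60, 14 were above both wild types and 13 below both, with HSPB1, HSPB8, DNAJA4 and DNAJB6 among those below. The part of the stress genes in those levels was not tested. Of the 7 stress genes, 2 passed the 2-fold rule in at least 1 comparison with wild type. Of all genes 1.43% to 2.18% passed it above wild type in a comparison, and 1.32% to 1.74% below. The nuclear receptor NR4A3 had 18 centred FPKM in the library labelled Wnt5a overexpression, 18.8 with lnc7831 knockdown and 32.3 with lnc3500 knockdown, against 4.54 and 5.33 in wild type, above wild type past that rule in each treated library. FOS had 75.6 centred FPKM in the library labelled Wnt5a overexpression, 447 with lnc7831 knockdown and 219 with lnc3500 knockdown, against 195 and 471 in wild type, below it past that rule in the library labelled Wnt5a overexpression.

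The spread between the wild types was uneven in this gene set. After centring, 42 of 60 members (70%) were lower in wild-type library 2 than in library 1, beside 49.3% of all genes, with a median of -0.25 beside 0.01. All 4 DNAJA genes, all 3 HSP110 genes, both mitochondrial chaperonin genes, 5 of 6 CCT genes and 6 of 7 HSP70 genes were lower in library 2. So were 13 of 22 DNAJC genes, 5 of 9 DNAJB genes, 2 of 4 small heat shock protein genes and 2 of 3 HSP90 genes. The 12 proliferation genes had a median of -0.32 in the same contrast, 11 of them lower, and the endoplasmic reticulum list -0.42. HSPB7, HSPA4L and HSP90B1 were at least 2-fold lower in library 2, and DNAJC30 and DNAJC19 at least 2-fold higher, beside 3.64% and 8.42% of all genes. With 1 library on each side this difference has no test.

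The treated libraries were last compared with each other, 1 library against 1 in the same limma fit. Limma called 0 of 60 members in each, beside 0.0272% of all genes between the knockdowns, 0.0453% between the library labelled Wnt5a overexpression and lnc7831 knockdown, and 0% between that library and lnc3500 knockdown, and 0 of 60 had an unadjusted p below 0.05 in any. Between lnc7831 knockdown and lnc3500 knockdown, 1 member was higher by at least 1 log2 unit and 2 lower, beside 3.26% and 2.72% of all genes. HSPA5 was higher in lnc7831 knockdown by 1.05 (SE 0.50), HSPB1 differed by -1.25 (SE 0.64) and HSPB8 by -1.2 (SE 0.42). Between the library labelled Wnt5a overexpression and lnc7831 knockdown, 1 member was higher by at least 1 and 0 lower, beside 2.86% and 3.28% of all genes. In that contrast HSPB8 was higher in the first by 1.16 (SE 0.42), HSPA5 differed by -0.98 (SE 0.50), DNAJA1 by -0.95 (SE 0.50) and HSPA8 by -0.91 (SE 0.54). DNAJB6 was also higher in the first, with 128 centred FPKM against 66.7 with lnc7831 knockdown. The library labelled Wnt5a overexpression and lnc3500 knockdown differed by 1 or more in 0 of 60 members, beside 0.752% and 0.988% of all genes. The comparisons share libraries, so these values are not independent of those against wild type.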

How the data were processed

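The deposited values are FPKM per gene, computed by the authors, with 1 column per library. TopHat2 2.1.0, Cufflinks 2.2.1 and galGal4 are named in the submitters' processing notes. Scaling between libraries, strand and treatment of shared reads are not given in the sources used here. The lowest FPKM fall in steps, whose commonest ratios put depth at 0.653, 0.818 and 0.740 of wild-type library 1 in the library labelled Wnt5a overexpression, with lnc7831 knockdown and with lnc3500 knockdown, and at 0.900 in wild-type library 2. These are rough, since only 8.50%, 11.7%, 8.33% and 23.7% of the low genes lay within 0.05 log2 units of the commonest ratio. Absolute depth is unknown, so no counting interval is given.

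FPKM were divided by each library's median ratio to the geometric mean (1.16, 1.26 and 1.19, against 0.751 and 0.784 in wild type) and taken to log2 after adding 1. The 5 libraries were fitted together with limma 3.58.1 (R 4.3.3, trend on), two-sided, with Benjamini-Hochberg adjustment at 0.05. The residual degrees of freedom were 1, given by the wild types, and the prior ones 2.70, and each lone library is assumed to vary like them. The step was also run on simulated data. All 5 libraries were drawn there with the spread estimated by this fit, so that run cannot check the assumption about lone libraries.

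Of 63 member names, 61 matched RefSeq (GRCg7b) symbols and 2 synonyms. Named members were the 3 highest of each family, fixed names and any past a rule. Members and lists were chosen with earlier results of these data known. Names outside this rule were chosen after their values were seen. Promoter and protein sequences were not used here.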

Additional observations from a re-analysis of the deposited data

How the results depend on the processing

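Members called by limma stayed at 0 in all 6 contrasts under every alternative with a test. That 0 has the limit given above, that even large differences were rarely called. The 42 members lower in wild-type library 2 moved by less than 1.5 times under each scaling, pseudocount and filter. Scaling moved the members' medians with those of all genes. On FPKM as deposited they were 0.51, 0.63 and 0.55 in the library labelled Wnt5a overexpression, with lnc7831 knockdown and with lnc3500 knockdown, and 2 (DNAJC5, HSPB8), 4 (DNAJA1, DNAJB5, HSP90AB1, HSPA5) and 2 (DNAJB5, HSPB8) members passed the 2-fold rule above wild type, beside 8.2%, 10.5% and 8.17% of all genes. With each library scaled to its summed FPKM, the medians of the knockdowns were -0.42 and -0.46. HSPA8 was then the 1 member 2-fold below wild type in lnc3500 knockdown, beside 2.98% of all genes. As deposited, 50, 56 and 50 members were above both wild types in the same order of libraries. The shares of all genes were 76.5%, 84.6% and 80.2%. Differences of members named by rule shifted by at least the wild types' standard deviation in 67 results as deposited, and by less in 11. Scaled to summed FPKM, these counts were 36 and 42. For family medians they were 26 and 1 as deposited, and 16 and 11 scaled to summed FPKM. Leaving out 1 wild type gave 1 to 3, 1 to 1 and 1 to 5 members above and 0 to 1, 0 to 1 and 0 to 2 below in the same order of libraries, beside 3.14% to 9.41% of all genes above and 3.51% to 4.92% below, with medians of -0.19 to 0.04, -0.11 to 0.13 and -0.15 to 0.10. It left no residual degrees of freedom, so limma gave no calls there. Genes called over the whole table, 1 in the library labelled Wnt5a overexpression and 4 in lnc7831 knockdown against wild type, were 0 and 0 with a pseudocount of 0.1 or no filter, and the 1 was also 0 on values as deposited and in a fit without the other treated libraries. The 3 genes between the knockdowns and the 5 between the library labelled Wnt5a overexpression and lnc7831 knockdown were 0 with a pseudocount of 0.1 or no filter, 1 and 2 when scaled to summed FPKM, and the 3 were 1 without the trend. The 0 between the library labelled Wnt5a overexpression and lnc3500 knockdown was 1 when scaled to summed FPKM, with a minimum of 5 FPKM or without the trend. The cause was not tested. No paired analysis was possible because each treated group has 1 library with no replicate number in its title.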
